A study of Mus musculus with 6 samples.

Results

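The genes described here are 49 genes of the G2 phase and mitosis. They were listed by name for their known roles in cell division and matched by Entrez gene ID to a table of read counts for 27179 mouse genes. All 49 had counts and all 49 passed the filter on low counts, as did 11602 genes in the whole table. Mitotic kinesins were left out by design, except that the centromere protein encoded by Cenpe is itself a kinesin motor. The counts are RNA-seq read counts from CD8-negative dendritic cells of C57BL/6 mouse spleen, isolated by cell sorting and lysed directly. There were 3 libraries from animals pretreated with CpG and 3 from animals that received none, carrying the replicate numbers 2, 3 and 4 in each group. CpG DNA is sensed by Toll-like receptor 9. The series title speaks of paralysed dendritic cells after systemic inflammation. The sources used here do not give the CpG sequence, dose, route or time, nor whether a library came from 1 mouse or from several.

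Conventional dendritic cells of the spleen arise from bone marrow precursors, and a part of the differentiated cells in the spleen still divides. Entry into mitosis is driven by cyclin A and cyclin B bound to CDK1. Condensin and topoisomerase II then compact the chromosomes, kinetochores attach them to the spindle under the watch of the spindle checkpoint, and the anaphase-promoting complex releases them by marking securin and cyclin B for destruction. Most of these genes are transcribed in G2 and M. They are held silent in resting cells by the DREAM complex through the cell cycle genes homology region (CHR), a short element near the start site, and their activation uses CCAAT boxes bound by NF-Y. Because they are transcribed together, the messenger RNA of these genes in a bulk sample is commonly read as a measure of dividing cells. In bulk samples such as these, more dividing cells and more RNA per cell cannot be told apart.

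The promoters of the 3 genes that passed the edgeR test over all genes (Top2a, Cenpf and Ckap2l) are shown because they carry the elements by which this gene class is known. Each is the 300-base RefSeq window of GRCm38.p6 from 250 bases before to 50 bases after the start site, written 5′ to 3′ on the gene's strand. Capitals mark CHR matches, searched as TTTGAA and TTCGAA, and CCAAT boxes, searched as CCAAT. Both strands were searched, so TTCAAA and ATTGG are capitals too, and TTCGAA is its own reverse complement.
Top2a, chr11:99024140-99024439, minus strand: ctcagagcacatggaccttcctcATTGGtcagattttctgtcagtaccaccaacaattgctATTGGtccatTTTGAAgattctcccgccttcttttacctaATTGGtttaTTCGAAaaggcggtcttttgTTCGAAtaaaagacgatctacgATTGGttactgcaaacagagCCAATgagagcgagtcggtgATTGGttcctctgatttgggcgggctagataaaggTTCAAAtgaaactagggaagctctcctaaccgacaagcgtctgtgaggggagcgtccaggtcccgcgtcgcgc
Cenpf, chr1:189688037-189688336, minus strand: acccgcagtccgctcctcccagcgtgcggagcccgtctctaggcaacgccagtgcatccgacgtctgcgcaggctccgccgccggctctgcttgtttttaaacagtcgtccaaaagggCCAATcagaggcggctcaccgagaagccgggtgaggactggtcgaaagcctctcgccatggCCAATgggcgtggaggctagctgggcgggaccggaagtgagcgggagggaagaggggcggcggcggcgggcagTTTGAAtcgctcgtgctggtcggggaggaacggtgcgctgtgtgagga
Ckap2l, chr2:129297163-129297462, minus strand: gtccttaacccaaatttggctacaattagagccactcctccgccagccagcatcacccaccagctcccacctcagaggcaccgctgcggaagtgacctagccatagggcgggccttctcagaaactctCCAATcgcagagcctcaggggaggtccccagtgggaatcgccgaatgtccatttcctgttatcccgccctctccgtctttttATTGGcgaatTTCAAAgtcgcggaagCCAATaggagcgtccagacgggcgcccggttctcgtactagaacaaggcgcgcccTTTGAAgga
The Top2a window held 4 CHR matches and 6 CCAAT boxes, the Cenpf window 1 and 2, and the Ckap2l window 2 and 3.

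The same search over the genes' promoters gave the composition of the class as a whole. RefSeq windows were matched for 41 of the 49 genes, 44 windows in all. A CHR match was present in 33 of the 44 windows (75.0%), against 14.2% of the 11554 windows of tested genes and 19.2% of all 32851 windows of the table. A CCAAT box was present in 34 (77.3%), against 38.1% and 37.4%. Both kinds together were present in 31 windows (70.5%), against 5.75% of windows of tested genes. No window of Birc5, Mad2l1, Melk, Ncaph, Nuf2, Nusap1, Plk4 or Pttg1 held either set of letters, which says only that these letters are not in those 300 bases. These are descriptions of sequence, with no measurement of binding in this series.

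The libraries held 7855500 to 8228140 counts, so that 1 count was worth 0.123 to 0.127 CPM (counts per 1000000, on the normalized scale). The cells carried the transcripts of their label, with the integrin gene Itgax at 1812 to 2275 CPM and Cd8a at 1.23 to 4.69 CPM over the 6 libraries. The pair of libraries numbered 2 stood apart from the other 4. Their deviations from the group mean fell with gene length over all tested genes (Spearman correlation -0.67 for untreated 2 and -0.55 for CpG-pretreated 2), while the other 4 libraries gave 0.23 to 0.53. Over the 49 genes the correlation was -0.82 for untreated 2 and -0.54 for CpG-pretreated 2. Short transcripts of the class thus stood higher in these libraries relative to long ones. Deviations were also shared between same-numbered libraries, and a fit blocked on that number is therefore given beside the principal one.

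All 49 mitosis genes were read in untreated cells, and their summed level was higher in each CpG-pretreated library than in any untreated one. Untreated levels per length ran from 2.78 RPKM (CPM per 1000 bases of gene length) for the spindle pole gene Aspm to 65.4 RPKM for the condensin gene Smc4, percentiles 17.8 and 90.3 of all tested genes. The median of the 49 was 14.0 RPKM, against 12.3 over all tested genes. Top2a (63.6 RPKM), Bub3 (51.7 RPKM) and Ncapd2 (39.6 RPKM) followed Smc4, and Ccnb1 (2.88 RPKM) and Cdc25c (3.01 RPKM) were near the lower end. Summed over the 49 genes, untreated libraries 2, 3 and 4 held 3107, 2904 and 2959 CPM, and the CpG-pretreated ones 5060, 4029 and 4177 CPM. Library values below follow this order of numbers. The groups did not overlap, and CpG-pretreated 2 stood highest. The ratio of the group means was 1.48, and within same-numbered pairs it was 1.63, 1.39 and 1.41.

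**Figure D1:**
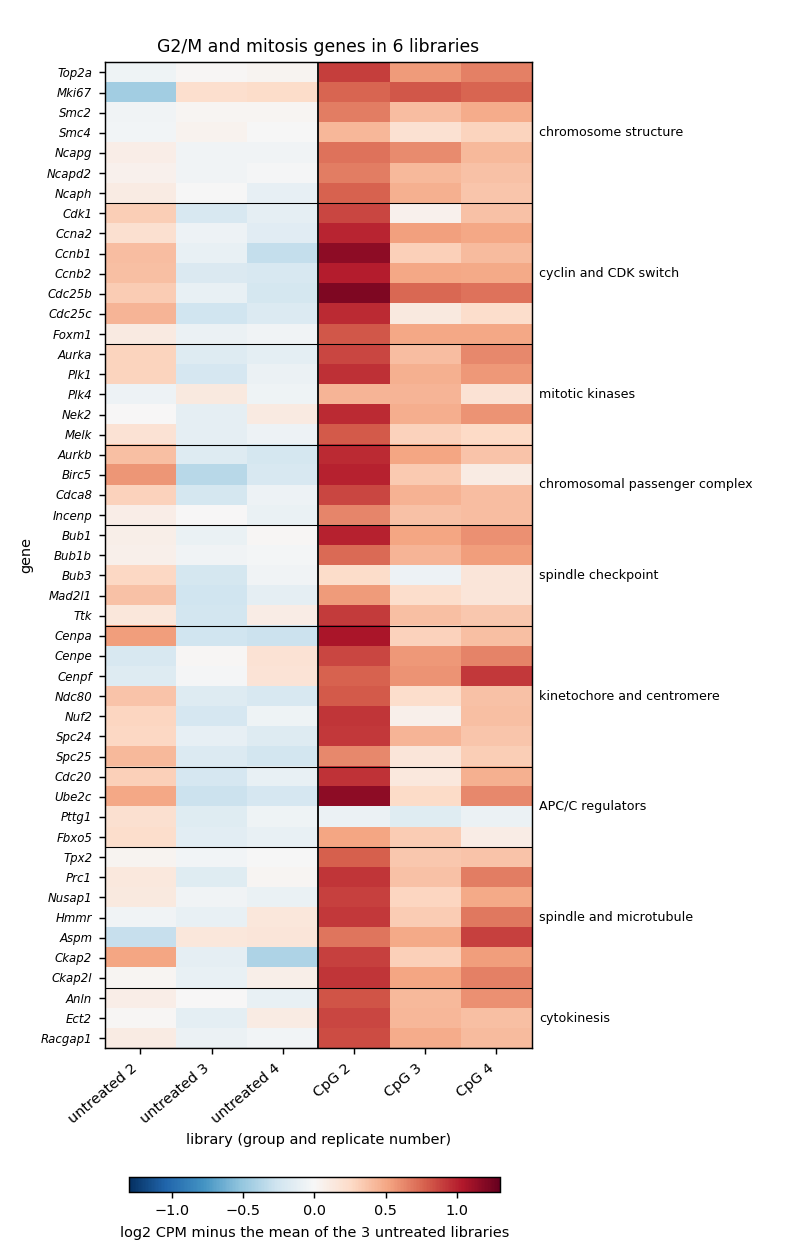
Each row is a gene and each column a library. Colour gives log2 CPM minus the mean log2 CPM of the 3 untreated libraries, with genes ordered by role. The 3 CpG-pretreated columns are red for nearly every gene, strongest in CpG 2, and the Bub3 and Pttg1 rows stay pale.

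Of the 49 genes, 3 rose by edgeR's quasi-likelihood test with Benjamini-Hochberg adjustment over all genes (Top2a, Cenpf and Ckap2l) and 0 fell, where 0.474% of all tested genes were called higher and 0.5% lower. DESeq2 called 26 higher and 0 lower (2.24% and 1.45% of all tested genes), and limma-voom 1 and 0 (0.121% and 0.233%). At an unadjusted p under 0.05, 38 of the 49 were higher and 0 lower, against 6.64% and 6.16% of all tested genes. With the replicate block 43 were called higher and 0 lower, where 4.73% and 3.78% of all tested genes were called. In 33 of the 49 every CpG-pretreated library was above every untreated one, as in 9.2% of all tested genes, and in 0 every one was below, as in 9.47%. The fold change was above 0 in 48 of 49, against 48.9% of all tested genes. The median log2 fold change was 0.58, a ratio of 1.49, where the median over all tested genes was -0.01. The middle 50% of the class lay between 0.48 and 0.67, and 45 of the 49 values lay between 0.3 and 0.8. Each of the 49 values was below 1, a doubling.

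The calls of single genes depended on which libraries were kept. Without untreated replicate 2, 3 or 4, or CpG-pretreated replicate 2 or 3, 0 of the 49 passed the edgeR test (no other tool was run on these subsets). In these fits 30 to 47 were higher at an unadjusted p under 0.05. Over all genes, 1065 to 1680 of 11751 to 11824 tested had such a p in either direction. Without CpG-pretreated replicate 4, 3 passed (Top2a, Ncapg and Cenpf), where 2.32% of all tested genes were called higher. The median of the 49 stayed between 0.41 and 0.67 when any 1 library was left out. Without both libraries numbered 2, a comparison chosen after the data were seen, 9 genes passed, against 0.223% of all tested genes called higher, and the median was 0.51. Of Top2a, Cenpf and Ckap2l, only Top2a passed in that fit, with an edgeR adjusted p of 0.0876 for Cenpf and 0.0650 for Ckap2l.

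**Figure D2:**
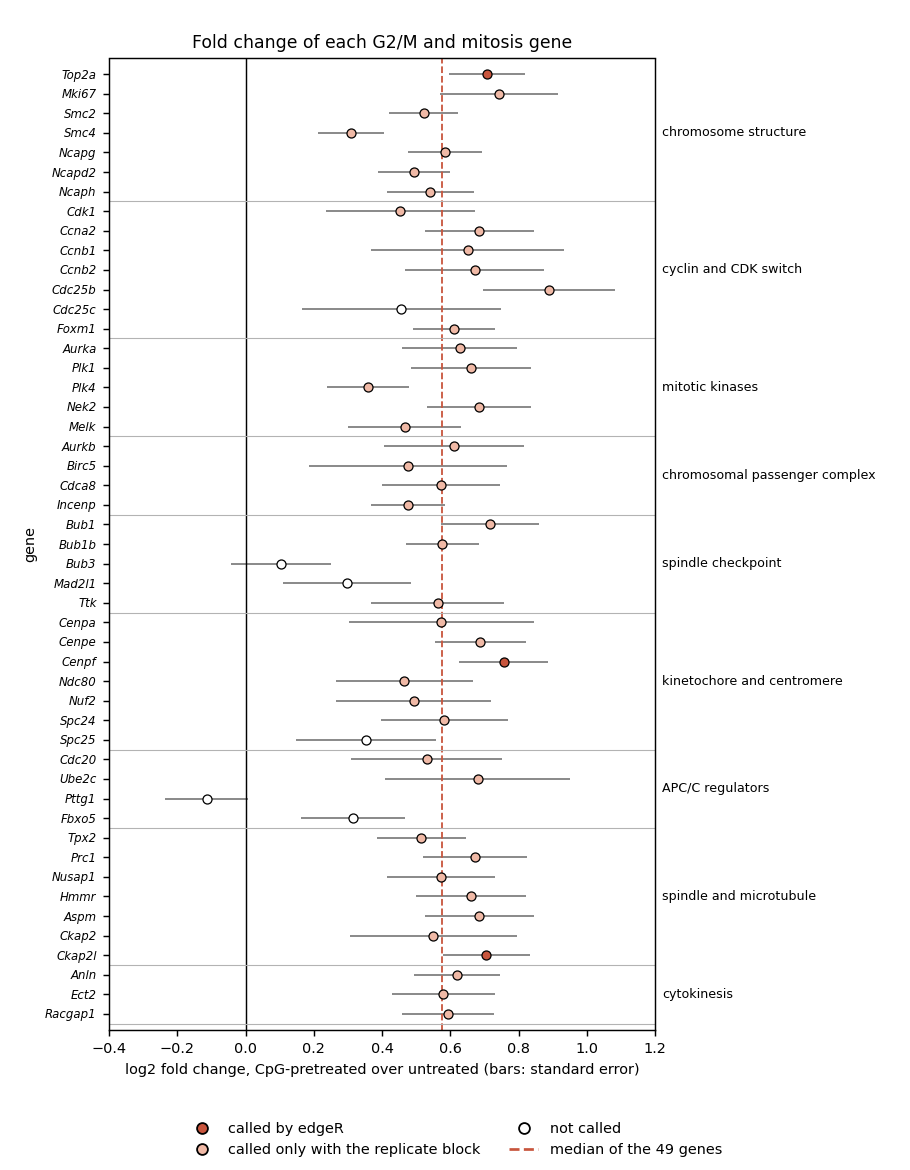
Points are edgeR log2 fold changes, CpG-pretreated over untreated, bars are standard errors, and fill gives the call. Top2a, Cenpf and Ckap2l are dark, 6 genes are open, and the dashed line is the median of the 49 genes at 0.58.

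Genes of chromosome structure had the highest median untreated level of the 9 roles, 32.4 RPKM, and all 7 were without overlap between the groups. Top2a (Entrez 21973; GRCm38 chromosome 11, 98992947 to 99024199) encodes topoisomerase II alpha, which untangles sister chromatids. It was at 319, 336 and 341 CPM in untreated libraries 2, 3 and 4 and at 617, 487 and 522 CPM in CpG-pretreated ones. Untreated libraries lay close together, and the lowest CpG-pretreated library was well above them. The log2 fold change was 0.71 (SE 0.11, edgeR adjusted p = 0.0398), with adjusted p between 8.98e-06 and 0.178 over the alternatives. Mki67 encodes Ki-67, the coat of mitotic chromosomes widely used as a proliferation marker. It was at 233, 370 and 375 CPM without CpG and 539, 558 and 539 CPM after it, with 1 untreated library far below the other two. Its log2 fold change of 0.74 (SE 0.17) did not pass the edgeR test (adjusted p = 0.0900). Mki67 is a long transcript (10075 bases), and deviations in untreated 2 fell with gene length. They fell with length in CpG-pretreated 2 as well, where Mki67 was at 539 CPM. With the gene length correction Mki67 was called higher (edgeR adjusted p = 0.00575). The cause of the low value in untreated 2 was not tested.

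The condensin genes, whose products form the ring that compacts chromosomes, had the smaller values within this role. Smc4 was at 261, 275 and 265 CPM without CpG and 360, 307 and 326 CPM after it, for a log2 difference of 0.31 (SE 0.10, edgeR adjusted p = 0.201). Its partner Smc2 gave 0.52, and the condensin I subunit genes Ncapg, Ncapd2 and Ncaph gave 0.58, 0.49 and 0.54. None of these 5 passed the principal test, the smallest adjusted p being 0.0542 for Ncapg. With the replicate block all 7 genes of the group were called higher (edgeR adjusted p of 0.000282 to 0.0299).

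The cyclins, CDK1 and their activators make up the switch into mitosis, and this group had a median log2 fold change of 0.65. Cdc25b encodes a phosphatase that removes the inhibitory phosphates from CDK1. It was at 25.1, 18.6 and 17.0 CPM without CpG and 46.4, 33.4 and 32.6 CPM after it, and its value of 0.89 on the log2 scale (SE 0.19, edgeR adjusted p = 0.0784) was the largest of the 49. Ccna2, encoding cyclin A2, was at 89.3, 74.1 and 70.1 CPM and then 154, 112 and 109 CPM (0.69, SE 0.16, edgeR adjusted p = 0.0889). In both genes the groups were apart, with the library numbered 2 highest in each group. The B-type cyclin genes Ccnb1 and Ccnb2 gave 0.65 and 0.67, and Foxm1, the transcription factor of late cell cycle genes, gave 0.61.

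CDK1 itself was less clearly separated. Cdk1 was at 42.8, 29.8 and 31.7 CPM without CpG and 62.4, 35.6 and 44.6 CPM after it (0.45, SE 0.22, edgeR adjusted p = 0.453). Untreated 2 exceeded CpG-pretreated 3, so the groups overlapped, while the CpG-pretreated library was the higher in each pair. Cdc25c, a second phosphatase gene of the family, was read from only 38 to 91 counts a library and gave 0.46 (adjusted p = 0.621). With the block 6 of the 7 were called higher, all but Cdc25c (adjusted p = 0.174).

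All 5 genes of the mitotic kinase group were without overlap. Nek2, a centrosome kinase gene, was at 22.6, 20.8 and 24.5 CPM without CpG and 44.0, 31.2 and 33.8 CPM after it (0.68, SE 0.15, edgeR adjusted p = 0.0828). Plk4, whose product starts centriole duplication, was at 27.4, 31.4 and 27.7 CPM and then 39.1, 38.9 and 32.7 CPM (0.36, SE 0.12, edgeR adjusted p = 0.241). The margin for Plk4 was narrow, with CpG-pretreated 4 just above untreated 3. Melk, a kinase gene of dividing cells, was at 41.3, 33.5 and 34.7 CPM and then 62.9, 44.8 and 43.4 CPM (0.47, SE 0.16, edgeR adjusted p = 0.264). The spindle pole kinase gene Aurka gave 0.63, and Plk1, a kinase gene acting from mitotic entry to cytokinesis, gave 0.66. None of the 5 passed the principal test, and all 5 were called with the block (edgeR adjusted p of 0.000591 to 0.0400).

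The chromosomal passenger complex corrects faulty attachments at centromeres and then moves to the midzone, and its 4 genes gave 0.48 to 0.61. Incenp, encoding the scaffold, was at 103, 97.5 and 91.3 CPM without CpG and 151, 127 and 128 CPM after it (0.48, SE 0.11, edgeR adjusted p = 0.0848), without overlap. Aurkb, encoding its kinase, was at 62.3, 42.4 and 40.4 CPM and then 92.6, 67.5 and 61.5 CPM (0.61, SE 0.21, edgeR adjusted p = 0.245). Here CpG-pretreated 4 lay just under untreated 2. Birc5, encoding survivin, was the most variable, at 65.4, 34.3 and 38.1 CPM and then 88.3, 55.7 and 47.5 CPM (0.48, SE 0.29, edgeR adjusted p = 0.597). Untreated 2 was above 2 of the 3 CpG-pretreated libraries for Birc5. With the block all 4, Cdca8 (borealin) included, were called higher (edgeR adjusted p of 0.000363 to 0.00496).

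Within the spindle checkpoint the kinase genes had larger values than Bub3 and Mad2l1, a difference that was not tested. Bub1, a checkpoint kinase gene, was at 43.3, 38.8 and 41.4 CPM without CpG and 82.4, 58.5 and 61.8 CPM after it (0.72, SE 0.14, edgeR adjusted p = 0.0661). Bub1b, encoding BubR1, was at 97.2, 90.1 and 91.0 CPM and then 154, 126 and 135 CPM (0.58, SE 0.11, edgeR adjusted p = 0.0537). Both were clear of overlap, as was the kinase gene Ttk (0.56). Bub3, encoding a WD-repeat partner of these kinases, was at 127, 89.9 and 102 CPM without CpG and 124, 101 and 117 CPM after it (0.10, SE 0.15, edgeR adjusted p = 0.880). All 3 CpG-pretreated libraries lay inside the range of the untreated ones, and in pair 2 the CpG-pretreated library was the lower. Mad2l1, encoding the Mad2 inhibitor of the anaphase-promoting complex, gave 0.30 (adjusted p = 0.610). Bub1, Bub1b and Ttk were called with the block, and Bub3 and Mad2l1 were not (edgeR adjusted p = 0.472 and 0.0845).

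**Figure D3:**
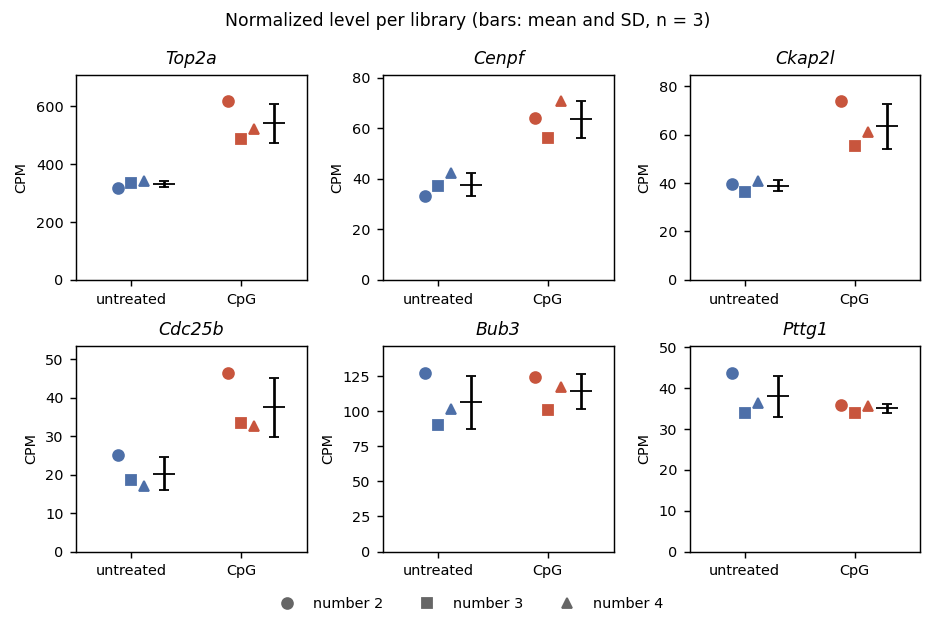
CPM of 6 genes in each library, with marker shape for the replicate number and black bars for the group mean and SD. Top2a, Cenpf, Ckap2l and Cdc25b show separate groups, while Bub3 and Pttg1 overlap.

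Kinetochore and centromere genes had a median of 0.57, and the longest transcripts led them. Cenpf (Entrez 108000; GRCm38 chromosome 1, 189640606 to 189688107) encodes a large kinetochore corona protein that accumulates in G2. It was at 33.3, 37.1 and 42.4 CPM without CpG and 63.9, 56.1 and 70.7 CPM after it. Here the library numbered 4 was highest in both groups, unlike in most of the 49 genes. The log2 fold change was 0.76 (SE 0.13, edgeR adjusted p = 0.0444), with adjusted p between 9.08e-05 and 0.188 over the alternatives. Cenpe, the kinetochore motor gene, was at 44.6, 52.4 and 59.0 CPM and then 94.2, 76.1 and 80.9 CPM (0.69, SE 0.13, edgeR adjusted p = 0.0607), without overlap. 

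The NDC80 complex, the microtubule-binding core of the kinetochore, gave 0.47 for Ndc80, 0.49 for Nuf2, 0.58 for Spc24 and 0.35 for Spc25. Spc25 was at 25.7, 17.0 and 16.2 CPM without CpG and 29.7, 21.4 and 24.1 CPM after it (SE 0.20, edgeR adjusted p = 0.563). Untreated 2 exceeded 2 of the CpG-pretreated libraries there. Cenpa, encoding the centromeric histone, gave 0.57 and overlapped in the same way. With the block 6 of the 7 were called higher, all but Spc25 (adjusted p = 0.0785).

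Regulators and substrates of the anaphase-promoting complex had the lowest median of the 9 roles, 0.42, and none of its 4 genes was without overlap. Ube2c, encoding the ubiquitin-conjugating enzyme that works with the complex, was at 42.4, 24.6 and 25.8 CPM without CpG and 67.0, 35.6 and 46.1 CPM after it (0.68, SE 0.27, edgeR adjusted p = 0.336). Cdc20, the mitotic activator gene, gave 0.53. Fbxo5, encoding the inhibitor Emi1, gave 0.31. Pttg1, encoding securin, which keeps separase inactive until anaphase, was at 43.7, 34.0 and 36.4 CPM without CpG and 35.8, 33.9 and 35.8 CPM after it. The Pttg1 value was -0.11 (SE 0.12, edgeR adjusted p = 0.816), the only negative one of the 49, and the CpG-pretreated library was the lower in all 3 pairs. Ube2c and Cdc20 were called with the block, and Fbxo5 and Pttg1 were not (edgeR adjusted p = 0.0802 and 0.570).

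Spindle and microtubule genes had the highest median, 0.66, and 6 of 7 were without overlap. Ckap2l (Entrez 70466; GRCm38 chromosome 2, 129268210 to 129297228) encodes radmis, a spindle pole protein. It was at 39.4, 36.4 and 40.9 CPM without CpG and 73.8, 55.3 and 61.2 CPM after it. The log2 fold change was 0.70 (SE 0.13, edgeR adjusted p = 0.0491), with adjusted p between 0.000211 and 0.199 over the alternatives. It was thus near the threshold, and lost its call with library size only, upper quartile scaling, limma-voom and the filter at 1 CPM. Tpx2, which encodes an activator of Aurora A on spindle microtubules, was at 82.0, 77.8 and 79.5 CPM and then 137, 102 and 103 CPM (0.51, SE 0.13, edgeR adjusted p = 0.110). Aspm, Hmmr, Nusap1 and the midzone bundling gene Prc1 gave 0.68, 0.66, 0.57 and 0.67, and all 4 were clear of overlap. With the block all 7 were called higher (edgeR adjusted p of 0.000352 to 0.0160).

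The 3 cytokinesis genes gave 0.58 to 0.62, each without overlap between the groups, and none passed the principal test. Anln, encoding the contractile ring scaffold anillin, was at 33.4, 31.8 and 29.6 CPM without CpG and 55.4, 42.4 and 47.7 CPM after it (0.62, SE 0.13, edgeR adjusted p = 0.0674). Ect2, encoding the RhoA activator of the furrow, was at 30.0, 27.1 and 32.0 CPM and then 54.1, 40.1 and 38.9 CPM (0.58, SE 0.15, edgeR adjusted p = 0.119). Racgap1, encoding its centralspindlin partner, was at 78.8, 69.4 and 70.9 CPM and then 131, 102 and 96.8 CPM (0.59, SE 0.13, edgeR adjusted p = 0.0848). In each of the 3 the CpG-pretreated library 2 was the highest. All 3 were called with the block (edgeR adjusted p of 0.000631 to 0.00577).

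The same library was the highest for most of the genes, while the lowest varied. CpG-pretreated 2 was the highest CpG-pretreated library in 46 of the 49 genes, and untreated 2 the highest untreated one in 37. The lowest was CpG-pretreated 3 in 31 genes and 4 in 18, and untreated 3 in 26, 4 in 15 and 2 in 8. In the 16 genes whose groups overlapped, untreated 2 exceeded at least 1 CpG-pretreated library in all 16, while untreated 3 or 4 did so in 2. Those 16 genes had a median length of 1949 bases, against 3547 bases in the 33 without overlap. Within pairs, 47 of the 49 were higher in CpG-pretreated 2, 48 in CpG-pretreated 3 and 48 in CpG-pretreated 4, and 47 were higher in all 3 pairs, as in 22.2% of all tested genes. With the gene length trend of each library removed, 19 genes were called higher without the block (1.83% of all tested genes) and 43 with it (5.7%). Cenpf lost its call in the former fit (edgeR adjusted p = 0.0569) and kept it in the latter.

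Other genes of mitosis were covered by a list of 108 genes, kinesins again left out, of which 107 were tested. By edgeR 1 of them rose (Cdca2) and 0 fell (0.474% and 0.5% of all tested genes). At an unadjusted p under 0.05, 39 were higher and 0 lower (6.64% and 6.16%). With the block 32 were called higher and 0 lower (4.73% and 3.78% of all tested genes), by DESeq2 12 and 0 (2.24% and 1.45%), and by limma-voom 0 in both directions (0.121% and 0.233%). Their median was 0.31. Within it, 37 genes of mitotic entry and the spindle had a median of 0.43 and 29 other centromere and kinetochore genes one of 0.32. The kinetochore scaffold gene Knl1 averaged 31.2 ± 7.66 CPM without CpG and 53.2 ± 6.36 CPM after it (SD, n = 3 per group), a log2 difference of 0.77. Among 13 cohesin and separase genes the median was 0.24, with the cohesin protector genes Sgo1 and Sgo2a at 0.71 and 0.68. Knl1, Sgo1 and Sgo2a did not pass the principal test.

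Subunits of the anaphase-promoting complex, which cells keep through the cycle, were listed with its activator gene Fzr1 and its ubiquitin-conjugating enzyme gene Ube2s. This list had values near 0. Its 15 tested genes had a median of 0.05, between -0.27 for Cdc26 and 0.18 for Fzr1, which acts in interphase. Of them 0 were called by edgeR in either fit, 0 by DESeq2 or limma-voom and 0 at an unadjusted p under 0.05. The 10 genes of the MuvB and DREAM complexes had a median of 0.13, with 0 called by edgeR, DESeq2 or limma-voom. At an unadjusted p under 0.05, 4 were higher (6.64% of all tested genes), and 2 were called higher with the block (4.73%). Mybl2, encoding the B-Myb activator of late cell cycle genes, had the largest value of that list, 0.56 (edgeR adjusted p = 0.118). DNA replication and G1/S genes, 48 in number, had a median of 0.35, with 0 called by edgeR or limma-voom. At an unadjusted p under 0.05, 27 were higher and 0 lower (6.64% and 6.16% of all tested genes). With the block 29 were called higher (4.73%), and by DESeq2 9 (2.24%). The 49 mitosis genes and the replication genes were not tested against each other. In each pair the replication median was the lower, at 0.48, 0.29 and 0.26 against 0.66, 0.48 and 0.52.

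**Figure D4:**
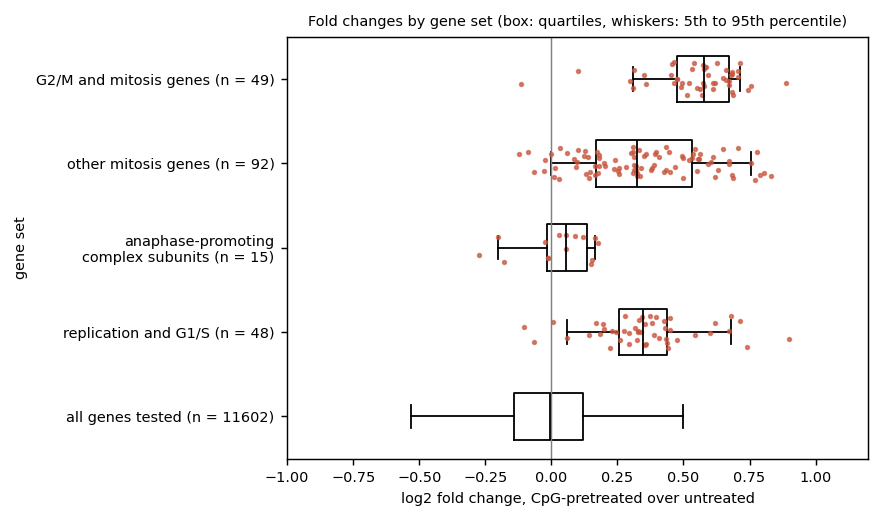
Log2 fold changes after CpG in 5 gene sets, with boxes for quartiles, whiskers for the 5th to 95th percentile, and points for single genes except in the set of all genes. The G2/M and mitosis genes centre on 0.58 and the replication genes on 0.35. The list of anaphase-promoting complex subunits, which also holds Fzr1 and Ube2s, centres on 0.05.

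Some lists of markers of other cells also differed between the groups. Over 19 erythroid markers (the transferrin receptor gene Tfrc left out), the summed level was 72.5 to 180 CPM without CpG and 374 to 1690 CPM after it. Of the 19, 13 were without overlap and higher, against 9.2% of all tested genes, and Hba-a1 was at 0 throughout. Hba-a2, Hbb-bs, Hbb-b1, Alas2, Trim10 and Bpgm rose by the edgeR test (adjusted p of 0.0398 to 0.0485), and the others were not called. Within pairs 2, 3 and 4 the erythroid sum was 22.2, 8.52 and 5.16 times higher, and the sum of the 49 mitosis genes 1.63, 1.39 and 1.41 times higher. CpG-pretreated 2 had the highest sum of both, 5060 CPM of mitosis genes and 1690 CPM of erythroid markers. CpG-pretreated 3 and 4 had 4029 and 4177 CPM of mitosis genes, with erythroid sums of 1532 and 374 CPM. Tfrc, which dividing cells and erythroblasts both carry, was at 279, 299 and 285 CPM without CpG and 277, 265 and 238 CPM after it. Red pulp macrophage markers (12 genes) went the other way, summing to 514 to 680 CPM without CpG and 355 to 483 CPM after it. Of these, 8 were without overlap and lower, and C1qa, C1qc and Vcam1 fell by the edgeR test (adjusted p = 0.0236, 0.0438 and 0.0444). The T cell list (11 genes) was lower without overlap too, at 535 to 550 and 347 to 503 CPM. Most of that sum was Cd4, which CD8-negative dendritic cells also carry, at 467 to 492 and 279 to 444 CPM, while Cd3e was under 1 CPM in every library. The natural killer cell list (8 genes) summed to 36.5 to 43.0 and 67.1 to 111 CPM. Nearly all of it was Klrk1, at 36.0 to 40.9 and 66.7 to 108 CPM, which rose by the edgeR test (adjusted p = 0.0379). Ncr1, Klrb1c, Klra8, Eomes and Prf1 were under 1 CPM throughout. Gzma was at 0, 0.375 and 0.123 CPM without CpG and 2.33, 0.761 and 0.126 CPM after it. Nkg7 was at 0.123, 0.375 and 0.246 CPM and then 1.59, 1.27 and 0.126 CPM. Both overlapped between the groups. The plasmacytoid dendritic cell sum (8 genes) was higher without overlap, at 260 to 267 and 286 to 327 CPM. Most of it was Spib, Tcf4 and Bst2, each of which overlapped between the groups (Spib at 129 to 140 and 137 to 188 CPM). Only 1 of the 8 genes was without overlap, Ly6d, at 1.13 CPM or less, where 9.2% of all tested genes were higher without overlap. Siglech, at 2.21 CPM or less, overlapped. The other sums overlapped between the groups. Neutrophil and granule markers (12 genes) were at 3.56 to 78.0 and 54.3 to 106 CPM, B cell markers (11 genes) at 507 to 527 and 439 to 596 CPM, plasma cell markers (7 genes) at 171 to 215 and 159 to 256 CPM, and progenitor markers (8 genes) at 1089 to 1260 and 1093 to 1364 CPM. Cd22 made up most of the B cell sum, and Kit and Flt3 most of the progenitor sum. Of the B cell list, Cr2 was lower without overlap, at 9.22 to 10.6 and 2.58 to 5.92 CPM. Blk was so too, at 22.5 to 27.9 and 15.2 to 18.9 CPM. Both were called lower with the block (edgeR adjusted p = 0.00243 and 0.0231) and not by the principal test. Vpreb3 was higher without overlap, at 0 and 0.123 to 0.127 CPM. Megakaryocyte markers (6 genes, Gp1bb at 0) stayed under 4 CPM. The shared core list of conventional dendritic cells (9 genes) was at 40706 to 48772 and 37655 to 44014 CPM. Their CD8-negative list (10 genes) was at 3381 to 4013 and 2927 to 3939 CPM. In it 5 genes were lower without overlap, against 9.47% of all tested genes. Their CD8-positive list (9 genes) was at 1741 to 2871 and 2021 to 2702 CPM. Esam, of the CD8-negative list, fell by the edgeR test (adjusted p = 0.0444). Most of the CD8-positive sum was Wdfy4, at 1539 to 2707 and 1790 to 2532 CPM. In that list Xcr1, Itgae, Irf8 and Tlr3 were called higher with the block (edgeR adjusted p of 0.00286 to 0.0213). The share of all tested genes called higher with the block was 4.73%. None of the list passed the principal test. The part of the cells of these lists in the summed level of the mitosis genes was not tested.

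**Figure D5:**
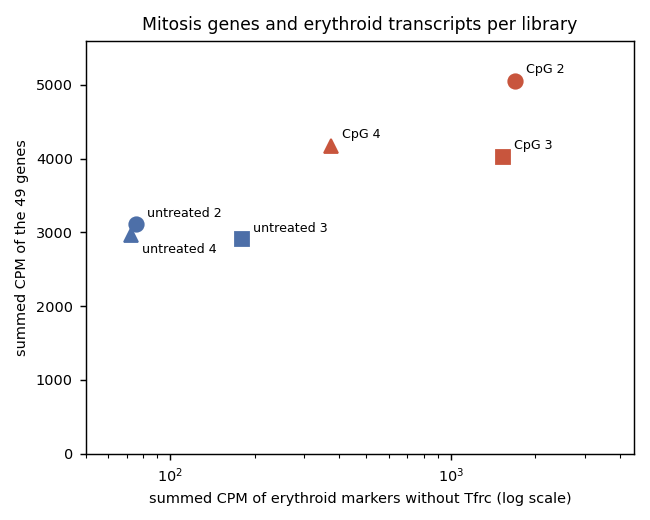
Summed CPM of the 49 G2/M and mitosis genes against summed CPM of 19 erythroid markers on a log axis, 1 point per library. CpG 2 is highest on both axes, at 5060 and 1690 CPM. CpG 3 and CpG 4 lie at 4029 and 4177 CPM, with erythroid sums of 1532 and 374 CPM.

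In 3 of the 49 genes, Cdc25c, Ccnb1 and Ttk, the untreated libraries averaged under 100 counts. The spans of 11 genes overlap another gene of the table, and the sources used here do not give the strand setting of the counting, so reads of the overlap cannot be assigned. The neighbour held a large count for Cdc20 (Elovl1), Aurka (Cstf1), Ccna2 (Exosc9), Ncapg (Lcorl) and Prc1 (Rccd1). Top2a, Cenpf and Ckap2l overlap no other gene of the table.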

How the data were processed

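Messenger RNA was measured in 3 CpG-pretreated and 3 untreated libraries. The authors deposited raw read counts by Entrez gene ID, made with CASAVA and featureCounts on mm10, per the submitters' processing notes, and the deposited gene length in bases gave RPKM. Symbols, positions and promoters came from RefSeq GRCm38.p6 (25275 IDs matched, 1904 not, the latter holding 0.327% of counts). The last 20 bases of 41 of the 44 promoter windows were found in a GENCODE transcript of the gene.

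Analysis used edgeR 4.0.16 in R 4.3.3: filterByExpr (minimum count 10, minimum total 15), TMM, robust quasi-likelihood F test on treatment alone, two-sided, Benjamini-Hochberg over 11602 genes, called under 0.05. Standard errors were computed from F and the fold change. CPM and RPKM use TMM library sizes, and log2 CPM a prior count of 2. The procedure was run on simulated counts drawn without a replicate-number effect or a gene length trend. That run does not bear on either. Alternatives were DESeq2 1.42.0, limma-voom 3.58.1, other scalings and filters, a gene length correction (loess of the deviation on log2 length, span 0.5), the replicate block, and leaving out each library. Replicates differed by more than sampling noise (chi-square per degree of freedom 3.17 to 19.7). The p-values measure only the spread between these samples.

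Same-numbered libraries deviated together (correlations across genes of 0.48, 0.25 and 0.31 for numbers 2, 3 and 4), each over 0.1. Unlike-numbered ones gave -0.39 to 0.07, and centring within groups lowers such values. Over the 49 genes untreated 3 with CpG-pretreated 4 gave 0.40, against 0.48 for number 4. The libraries numbered 2 also share a gene length trend. The block treats the numbers as pairs on this basis, from the data and not the labels, which do not say what a number marks. Members and lists were chosen with earlier results of these data known. Genes given in full are those called by edgeR and, in each role, the most abundant and those with the largest and smallest fold change, 25 in all. Other values are examples. At most 2 or 3 genes are named in each of the other lists of mitosis genes. A further marker list was not reported here.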

Additional observations from a re-analysis of the deposited data

How the results depend on the processing

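The fold change of 47 of the 49 genes was above 0 in the principal fit and in all 16 alternatives, the exceptions being Bub3 (-0.01 to 0.27) and Pttg1 (-0.19 to 0.01), neither called in any. The median log2 fold change of the 49 lay between 0.41 (without CpG-pretreated replicate 2) and 0.67, and 0 of the 49 were called lower in any. The number called depended on the fit. Against 3 of the 49 and 113 of all genes, limma-voom called 1 and 41, DESeq2 26 and 428, no filter on low counts 14 and 189, and the gene length correction 19 and 387. With the replicate block, which pairs same-numbered libraries, 43 of the 49 and 988 of all genes were called, 32 other mitosis genes (1 without it) and 29 replication genes (0 without it). With the replicate block and the gene length correction together these were 43 and 1150. Leaving out 1 library gave 0 to 3 of the 49 and 0 to 386 of all genes, with fewer samples in each fit. Without both libraries numbered 2 it was 9 and 67, with Top2a kept and Cenpf and Ckap2l lost. Scaling by library size or upper quartile, and filtering at 1 CPM, each left 2 (Top2a and Cenpf). Of 400 gene and alternative pairs for the 25 genes given in full, 307 kept the call or its absence, 69 gained a call, 24 lost one and 0 reversed. The causes were not tested. Counts were lowest for Cdc25c, Ccnb1 and Ttk, whose untreated libraries averaged under 100 counts.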
